A study of Mus musculus with 6 samples.

Results

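The nuclear genes of respiratory chain complexes II, III and IV, of cytochrome c and of ATP synthase (complex V) were examined in hearts of 11-month-old mice lacking Ybx1 in cardiomyocytes (Ybx1cmKO, 3 hearts) and in hearts of their littermate controls (3 hearts). Members were the protein-coding genes named Sdha to Sdhd, Uqcr, Cyc1, Cycs, Cox4 to Cox8 and Atp5, which gave 52 of 78409 genes in the table. They comprised 4 genes of complex II, 9 of complex III, 1 of cytochrome c, 19 of complex IV and 19 of complex V. Ybx1 encodes a Y-box protein that binds DNA and RNA. The labels give no Cre line, strain or sex, and the control genotype is given only as control. Each library is labelled as 1 numbered heart, so p-values measure the spread between these hearts.

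Complex II (succinate dehydrogenase) passes electrons from succinate to ubiquinone, complex III passes them on to cytochrome c, and complex IV (cytochrome c oxidase) hands them to oxygen. Complexes III and IV pump protons, and ATP synthase uses the resulting gradient to make ATP. Complexes III to V also hold subunits encoded by mitochondrial DNA, whereas complex II is wholly nuclear-encoded. Heart muscle carries these complexes in great abundance, and several complex IV subunits exist as a form of striated muscle and a form of most other tissues.

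The libraries held 12270796 to 15141525 counts. Ybx1 was at 849, 810 and 895 CPM (a gene's counts per 1000000 of its library, TMM-normalised) in control hearts 1 to 3 and at 203, 171 and 110 in knockout hearts 1 to 3. The groups lay far apart, with a log2 fold change of -2.40 ± 0.27 (SE), although edgeR's quasi-likelihood test gave an adjusted p of 0.148 over all genes. The 7 cardiomyocyte markers summed to 17070 to 23880 CPM in every heart, the 2 lung epithelial markers were at 0, and the 3 atrial markers ranged from 2.44 CPM in knockout 1 to 209 CPM in control 3. Knockout 3 stood apart: mitochondrial rRNA took 10.7% of its counts against 20.5 to 26.3% elsewhere, and Malat1, a nuclear RNA, was at 668 CPM as deposited against 3317 to 7923 CPM. Xist exceeded 10 CPM in control 1 and knockout 3 alone, so each group held 1 Xist-expressing heart. Medians and fold changes that moved by over 1.5 times without knockout 3 are therefore given both ways, beside the result or with the fits that leave out 1 heart.

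No member differed between the groups after correction. Of the 52 members, 50 passed the filter of at least 1 CPM in 3 libraries, and 0 of the 50 had an adjusted p below 0.05 by edgeR (0.0% of all 13717 genes tested did, and 0.109% by DESeq2, with 0 members among them). At an unadjusted p below 0.05 there was 1 member higher, Cox6a1, against 2.69% of all genes, and 0 lower, against 2.45% (5.14% in either direction). All 3 knockout values lay above all 3 control values in 1 member, again Cox6a1, against 6.26% of all genes, and below them in 0 members, against 5.82% (12.1% in either direction). Both shares of members were below the background. The 95% interval excluded a 2-fold change in either direction for 27 of 50 members and for 8707 of the 13717 genes. In RNA from all cells of a heart sample together, fewer cells of a type and less RNA per cell cannot be told apart.

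The direction of the members rested on knockout 3. With all hearts, 40 of 50 members had a log2 fold change above 0 (51.1% of all genes did), with a median of 0.20 against 0.01 over all genes. Without knockout 3, 41 of 50 lay below 0 (51.5% of all genes did), with a median of -0.11 against -0.01. With the share of counts in TEC genes, an annotation class of provisional transcripts, as a covariate, 47 lay below 0 and the median was -0.23; that share was 0.0669% in knockout 3 and at least 0.159% in the others. Without control 2 the median was 0.05, and without knockout 1 it was 0.44.

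Hearts of the same group differed widely. The median member, as log2(CPM + 0.5) relative to the control mean, stood at 0.05, -0.29 and 0.24 in controls 1 to 3 and at -0.39, 0.13 and 0.72 in knockouts 1 to 3. The knockout values thus enclosed all the control values. Knockout 3 was the highest of the 6 hearts in 42 of 50 members (33.9% of all genes), and knockout 1 was the lowest in 31 and control 2 in 17. In the Xist-expressing pair the knockout was the higher (0.72 against 0.05), while the other controls (-0.29 and 0.24) and knockouts (-0.39 and 0.13) interleaved. The members together took 2.09, 1.37 and 2.41% of counts in the controls and 1.65, 1.97 and 3.62% in the knockouts. Every one of these shares had a Wilson 95% interval, covering counting error only, of under 0.01 percentage points on either side. The low mitochondrial rRNA and Malat1 of knockout 3 went with its high members; their part in the result was not tested.

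**Figure D1:**
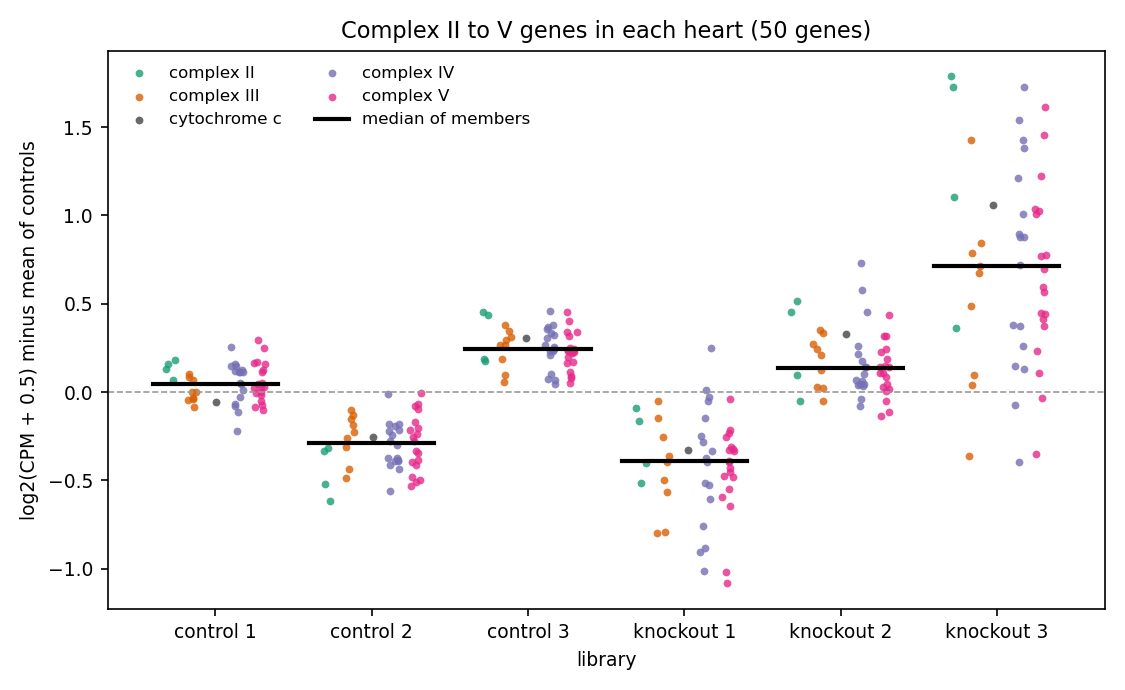
Each point is 1 of 50 genes, shown as log2(CPM + 0.5) minus the mean of the 3 controls (vertical axis) in each heart (horizontal axis), coloured by complex; black bars are medians over the genes. The bars run from -0.39 in knockout 1 to 0.72 in knockout 3, and the control bars lie between them.

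Complex II had the highest median of the complexes, 0.59, which was -0.01 without knockout 3. Sdhd, a membrane anchor subunit, was at 47.7, 31.6 and 62.5 CPM in controls and 40.7, 65.3 and 158 CPM in knockouts. Knockout 1 lay inside the control range and knockout 3 far above it. Its log2 fold change was 0.90 ± 0.47 (SE; adjusted p = 0.694 by edgeR) and 0.16 without knockout 3. Sdhc, the other anchor, was at 128, 73.3 and 153 CPM against 106, 155 and 375 CPM, and the groups again overlapped, with a log2 fold change of 0.84 ± 0.46 (SE; 0.14 without knockout 3). Sdha, the flavoprotein that oxidises succinate, was at 167, 123 and 174 CPM against 107, 147 and 328 CPM. Its log2 fold change of 0.33 turned to -0.28 without knockout 3. Sdhb, the iron-sulfur subunit, varied least of the 4, at 327, 233 and 331 CPM against 222, 314 and 377 CPM. Its log2 fold change was 0.03, with a 95% interval from -0.55 to 0.61, and it turned to -0.15 without knockout 3.

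In complex III, 7 of 9 genes lay above 0 and the median was 0.16, or -0.06 without knockout 3. Uqcrb, a small subunit near the ubiquinone site, had the largest value: it was at 194, 135 and 233 CPM in controls and 166, 217 and 494 CPM in knockouts. Only knockout 3 left the control range, and the log2 fold change was 0.64 ± 0.41 (SE), or 0.03 without that heart. Cyc1, the cytochrome c1 subunit, had the smallest value, at 379, 334 and 470 CPM against 225, 376 and 417 CPM (log2 fold change -0.22, 95% interval -0.83 to 0.40, and -0.39 without knockout 3). Here knockout 1 was low and the others overlapped the controls. Uqcrc1, a core subunit, was at 400, 372 and 427 CPM against 334, 407 and 310 CPM. It was the 1 gene of complex III lowest in knockout 3, with a log2 fold change of -0.19, or -0.11 without that heart. Uqcrc2, the other core subunit, went the other way in that heart, at 340, 226 and 412 CPM against 240, 346 and 505 CPM. Uqcrfs1, the Rieske iron-sulfur protein, was at 229, 185 and 284 CPM against 132, 277 and 411 CPM. Both had overlapping groups, with log2 fold changes of 0.16 and 0.23 that turned to -0.16 and -0.19 without knockout 3. Uqcrq was the steadiest member of the complex, at 579 to 664 CPM in all 6 hearts (log2 fold change 0.00, 95% interval -0.43 to 0.43). The small subunits Uqcrh (0.29), Uqcr10 (0.24) and Uqcr11 (0.15) lay between these log2 fold changes and overlapped between groups.

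Cycs, the mobile electron carrier between complexes III and IV, was at 222, 193 and 285 CPM in controls and 184, 289 and 480 CPM in knockouts. The groups overlapped, with a log2 fold change of 0.45 ± 0.34 (SE), or 0.02 without knockout 3. Its testis counterpart Cyct had at most 1 count in any heart.

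Complex IV holds the isoform pairs, for which the upstream sequences are shown first because the 2 pairs with both windows, Cox7a1 with Cox7a2 and Cox8a with Cox8b, differ in the letters searched. Cox6a2, Cox4i1 and Cox4i2 were not among the matched genes. Sequences are from RefSeq, mouse build GRCm38.p6, and give the 250 bases before the start of each gene 5′ to 3′ on its own strand; of the 52 members, 38 were matched. Capitals mark CCAAT, the NRF1 motif, the ETS motif CCGGAAG and the E-box CAGCTG, each on either strand; TATAAA was also searched. Cox6a1 lies upstream at chr5:115348959-115349208 (minus strand), Cox7a1 at chr7:30183921-30184170 (plus), Cox7a2 at chr9:79759854-79760103 (minus), Cox8a at chr19:7217617-7217866 (minus) and Cox8b at chr7:140900447-140900696 (minus).
Cox6a1: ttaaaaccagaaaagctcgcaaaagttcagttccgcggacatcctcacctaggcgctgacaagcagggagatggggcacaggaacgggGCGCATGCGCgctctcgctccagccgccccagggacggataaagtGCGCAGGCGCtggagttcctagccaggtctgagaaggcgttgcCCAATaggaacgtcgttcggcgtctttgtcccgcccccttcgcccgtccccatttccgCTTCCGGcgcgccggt
Cox7a1: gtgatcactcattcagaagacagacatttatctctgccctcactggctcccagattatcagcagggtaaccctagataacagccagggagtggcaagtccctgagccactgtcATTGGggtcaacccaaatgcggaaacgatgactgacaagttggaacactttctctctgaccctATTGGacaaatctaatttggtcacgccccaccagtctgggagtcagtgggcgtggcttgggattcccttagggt
Cox7a2: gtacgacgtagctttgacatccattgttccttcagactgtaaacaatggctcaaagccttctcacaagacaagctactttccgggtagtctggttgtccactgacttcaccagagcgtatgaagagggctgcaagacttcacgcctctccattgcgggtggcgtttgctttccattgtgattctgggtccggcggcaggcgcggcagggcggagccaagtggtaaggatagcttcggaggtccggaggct
Cox8a: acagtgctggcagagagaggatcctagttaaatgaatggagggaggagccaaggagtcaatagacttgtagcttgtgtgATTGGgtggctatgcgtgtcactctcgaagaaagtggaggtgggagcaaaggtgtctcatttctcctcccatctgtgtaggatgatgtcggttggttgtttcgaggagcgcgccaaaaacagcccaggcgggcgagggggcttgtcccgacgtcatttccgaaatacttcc
Cox8b: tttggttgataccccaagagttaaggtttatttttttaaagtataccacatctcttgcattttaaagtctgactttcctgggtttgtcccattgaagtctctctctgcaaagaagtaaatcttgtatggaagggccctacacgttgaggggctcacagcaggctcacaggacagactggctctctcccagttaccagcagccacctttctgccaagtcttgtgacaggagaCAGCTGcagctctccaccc
The Cox6a1 window held 2 NRF1 motifs, 1 ETS motif and 1 CCAAT. The Cox7a1 window held 2 CCAAT, Cox8a 1 CCAAT, Cox8b 1 E-box, and Cox7a2 none of the motifs. Over the 38 members, CCAAT was in 21 windows (55.3%, against 34.5% of all 27025 windows), the ETS motif in 8 (21.1% against 7.05%) and the NRF1 motif in 7 (18.4% against 3.86%). TATAAA was in 3 (7.89% against 13.0%) and the E-box in 3 (7.89% against 12.8%). The motifs were chosen with some of these sequences in view, so the shares are a description, and a match is not a shown binding site.

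Cox6a1 and Cox6a2 encode the ubiquitous and the striated-muscle form of subunit 6A. Cox6a1 was at 36.9, 25.1 and 38.9 CPM in controls and 39.3, 55.1 and 77.2 CPM in knockouts. Every knockout heart was above every control, though knockout 1 exceeded control 3 by under 1 CPM. The means were 33.6 ± 7.49 and 57.2 ± 19.0 CPM (SD, n = 3 each), and the log2 fold change was 0.77 with a 95% interval from 0.12 to 1.41 (edgeR unadjusted p = 0.0246, adjusted p = 0.694). It was 0.49 without knockout 3. Cox6a1 counts held fractions of a read in 4 of 6 libraries, so some of its reads were shared with other genes. Cox6a2 was at 1235, 977 and 1155 CPM against 661, 1197 and 1337 CPM. Knockout 1 lay below the controls and knockout 3 above them (log2 fold change -0.08, 95% interval -0.73 to 0.58; the sign turned with column totals, with limma and without knockout 1). An exon of Cox6a2 overlaps one of Itgad on the opposite strand, and reads of the 2 genes cannot be told apart if strand was not used.

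Within each heart the balance of the pair differed between the groups more than within them. Per kilobase of transcript, Cox6a2 exceeded Cox6a1 28.1-, 32.7- and 25.0-fold in controls and 14.1-, 18.3- and 14.5-fold in knockouts. All 3 knockout ratios lay below all 3 control ratios, and knockout 3 was not the extreme. The log2 ratio was 5.06 ± 0.19 in controls and 4.20 ± 0.20 in knockouts (SD, n = 3 each), a difference of -0.86, or 0.551 of the control ratio. By exact permutation (two-sided) this gave p = 0.1, and no smaller value is possible with 3 hearts a group; adjusted over the 4 ratios tested it was 0.2. Leaving out 1 heart at a time gave differences from -0.98 to -0.76. Cell type marker lists differed in direction, and none of their genes passed an adjusted p of 0.05 (51.1% of all genes lay above 0). Of 7 cardiomyocyte markers 4 lay above 0 (median 0.05), and without knockout 3 it was 3 (median -0.05). Log2 fold changes of the 7 went both ways, from -0.64 to 0.69. Myh6, the main myosin of adult mouse heart, was at 6036, 4996 and 5389 CPM against 3834, 3931 and 2798 CPM. Every knockout was below every control in Myh6 (log2 fold change -0.64, edgeR unadjusted p = 0.0302) and in Ryr2, the calcium release channel (-0.26). That held for 2 of the 7, against 5.82% of all genes. All 5 fibroblast markers (median 0.35, summed 583 to 675 CPM in controls and 677 to 861 CPM in knockouts) and all 3 macrophage markers (median 0.41, summed 36.9 to 47.02 and 49.8 to 56.8 CPM) lay above 0. C1qa, a macrophage marker, was higher in every knockout (log2 fold change 0.33), 1 of 3 against 6.26% of all genes. All 3 smooth muscle and pericyte markers lay below 0 (median -0.15, or -0.01 without knockout 3). Of 3 endothelial markers, 2 lay above 0 (median 0.002, or 0.21 without knockout 3), and 1 lay wholly below the controls. The part of these markers in the ratio was not tested.

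Cox7a1 and Cox7a2 encode the muscle and the ubiquitous form of subunit 7A. Cox7a1 was at 761, 539 and 826 CPM in controls and 685, 770 and 1283 CPM in knockouts. Cox7a2 was at 264, 241 and 365 CPM against 141, 299 and 470 CPM. Both overlapped between groups, with log2 fold changes of 0.37 and 0.06 that became 0.04 and -0.40 without knockout 3. Their log2 ratio differed by 0.41 (exact permutation p = 0.3, adjusted 0.4), with the groups overlapping and knockout 1 the highest heart. Without knockout 1 it was 0.12, and leaving out each other heart gave up to 0.58. Cox7a2l, a relative that acts in supercomplex assembly, was at 108, 124 and 147 CPM against 67.8, 138 and 119 CPM (log2 fold change -0.22), again overlapping.

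Cox8b, the muscle form of subunit 8, was at 830, 641 and 787 CPM in controls and 577, 709 and 973 CPM in knockouts. Cox8a, its ubiquitous partner, was at 32.6, 24.0 and 39.7 CPM against 20.5, 32.2 and 58.1 CPM. In both genes knockout 1 was the lowest and knockout 3 the highest heart, so the knockouts enclosed the controls. Their log2 ratio differed by -0.12 (exact permutation p = 0.7, adjusted 0.7), and by 0.06 without knockout 3. Cox8c, a form known from testis, had 0 counts in all 6 libraries, which allows up to 0.198 to 0.245 CPM (3 counts a library).

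Cox4i1, the common form of subunit 4, was at 874, 786 and 1032 CPM in controls and 706, 1068 and 1156 CPM in knockouts, with overlapping groups. Cox4i2, a form known from lung and hypoxic cells, was at 2.58, 2.03 and 3.18 CPM against 1.83, 2.65 and 1.83 CPM, from 22 to 48 counts a heart. The Cox4i2 to Cox4i1 log2 ratio of CPM + 0.5 differed by -0.38 (exact permutation p = 0.1, adjusted 0.2). Its groups did not overlap on that scale, but the plain ratios did: knockout 1 (0.00259) lay above control 2 (0.00258). With 0.5 added to the counts instead, the exact permutation p was 0.2. Knockout 3 lay furthest, and leaving out 1 heart at a time gave differences from -0.53 to -0.16. An exon of Cox4i1 overlaps one of Emc8 on the opposite strand.

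**Figure D2:**
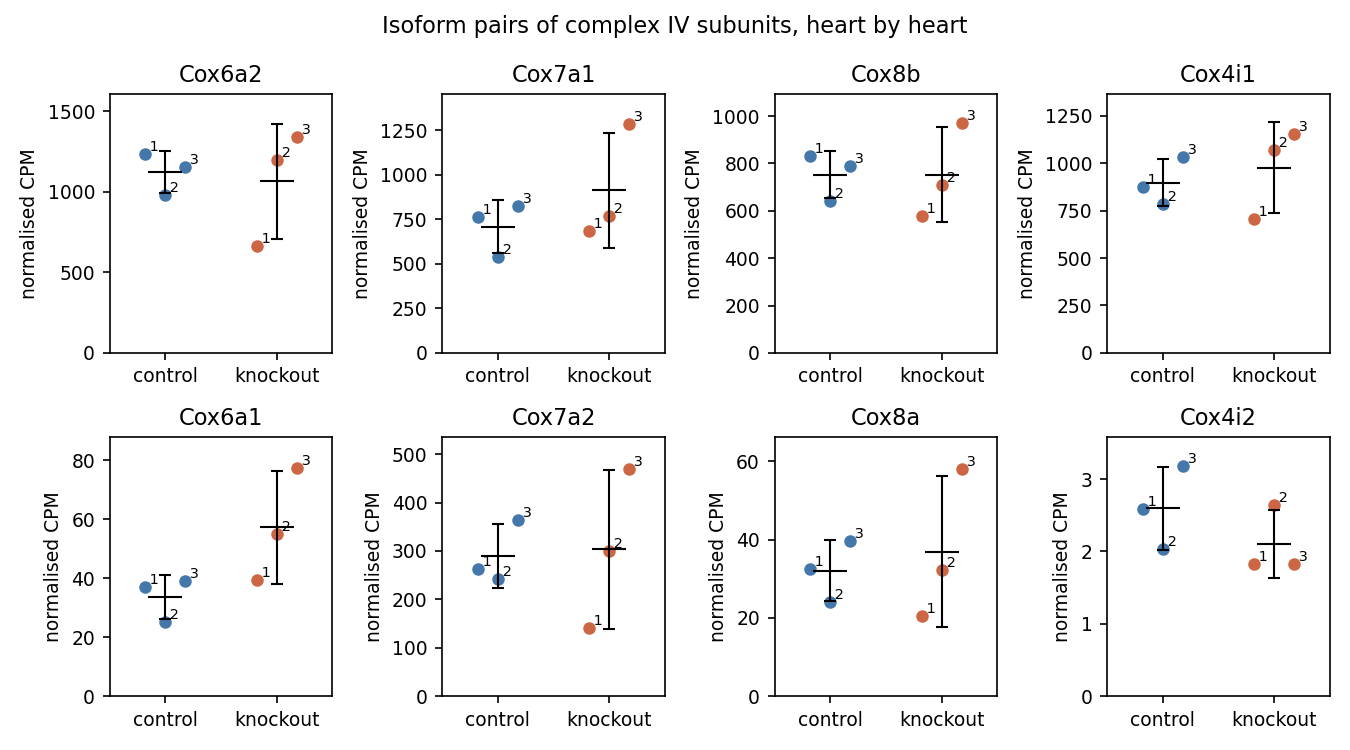
Normalised CPM (vertical axis, from 0) of the 8 paired complex IV isoforms in 3 control and 3 knockout hearts; points are hearts with their numbers, lines the mean and bars 1 SD. Cox6a1 is the 1 gene whose knockout hearts, 39.3 to 77.2 CPM, all lie above the controls, 25.1 to 38.9 CPM.

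**Figure D3:**
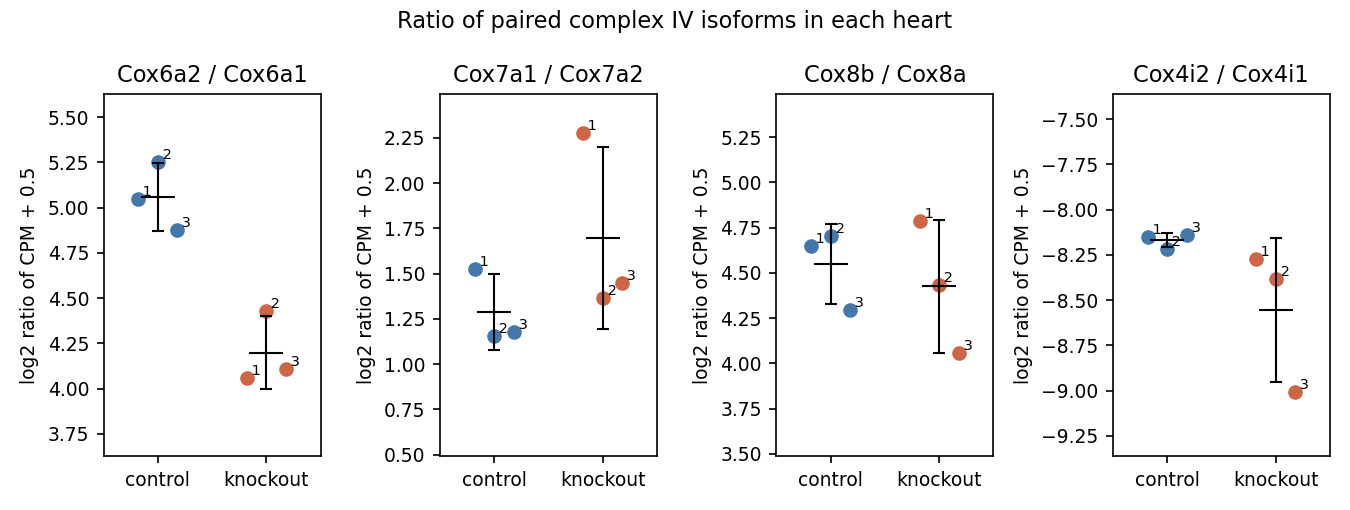
Log2 ratio of the paired isoforms in each heart, with the mean and 1 SD of each group; every panel spans the same number of log2 units. The Cox6a2 to Cox6a1 ratio is 5.06 on average in controls and 4.20 in knockouts with no overlap, whereas the Cox7a and Cox8 ratios overlap.

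The median log2 fold change of complex IV was 0.20, or -0.13 without knockout 3. Among its other genes, Cox7c, a small structural subunit, was at 297, 169 and 308 CPM in controls and 251, 281 and 825 CPM in knockouts. Knockouts 1 and 2 lay within the control range, and the log2 fold change fell from 0.81 to 0.05 without knockout 3. Cox5a, which lies on the matrix side, was at 425, 340 and 612 CPM against 237, 610 and 1201 CPM, and Cox7b at 271, 197 and 339 CPM against 182, 275 and 764 CPM. In both, the log2 fold changes of 0.57 and 0.60 turned to -0.12 and -0.24 without knockout 3. Cox6b1, the common form of subunit 6B, was at 334, 229 and 388 CPM against 300, 359 and 623 CPM, a log2 fold change of 0.43 that was 0.05 without knockout 3. Its testis-type partner Cox6b2 had the largest log2 fold change of all members, 0.92 ± 0.64 (SE), from 6 to 52 counts a heart, and 0.09 without knockout 3. Cox7b2 had 0 to 6 counts a heart and was not tested. Reads shared with other genes add uncertainty to many members: 40 of 52 held a fractional count in some library. In 8 it was all 6 libraries, namely Cox5b, Cox7c, Cox8a, Cycs, Uqcrb, Atp5mg, Atp5mk and Atp5pd. Cox5b-ps, listed as protein-coding, held fractions in 5.

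In complex V, 15 of 19 genes lay above 0, and the median was 0.15. Without knockout 3, all 19 lay below 0, and the median was -0.11. Of the catalytic subunits of the F1 head, Atp5f1b (beta) was at 1021, 907 and 1152 CPM in controls and 482, 932 and 1102 CPM in knockouts. Knockout 1 was low, the other knockouts lay within the control range, and the log2 fold change of -0.29 ± 0.31 (SE; -0.54 without knockout 3) was the smallest of the complex. Atp5f1a (alpha) was at 1072, 885 and 1243 CPM against 760, 1067 and 1405 CPM. The groups overlapped, its log2 fold change was 0.015, and the 95% interval ran from -0.61 to 0.64. Atp5f1c (gamma, the rotating shaft) was at 372, 236 and 420 CPM against 266, 369 and 669 CPM, a log2 fold change of 0.34 that turned to -0.11 without knockout 3. Atp5f1d (delta) was at 446, 470 and 503 CPM against 360, 509 and 370 CPM, one of the few members that were not high in knockout 3.

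The c subunit of the proton-driven ring is encoded by 3 genes. Atp5mc3 had the highest CPM of the members before scaling for length, at 1371, 1185 and 1602 CPM in controls and 1007, 1711 and 1879 CPM in knockouts. Atp5mc1 was at 368, 250 and 487 CPM against 175, 329 and 605 CPM, and Atp5mc2 at 21.6, 15.6 and 23.5 CPM against 15.99, 22.0 and 41.1 CPM. In Atp5mc1 and Atp5mc3 the knockouts enclosed the controls, and in Atp5mc2 only knockout 3 left the control range. Atp5if1, which inhibits ATP hydrolysis by the enzyme, was at 84.5, 57.1 and 87.8 CPM against 49.5, 102 and 129 CPM (log2 fold change 0.29). Atp5mk, a small membrane subunit, had the largest log2 fold change of the complex, 0.73 ± 0.45 (SE). It was at 105, 77.8 and 128 CPM against 86.3, 116 and 312 CPM, and the value was -0.04 without knockout 3. A gene named Atp5po occurs at 734 to 804 CPM in controls, and a second gene of that name at 13.8 to 24.8 CPM; their exons overlap others on the same strand.

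**Figure D4:**
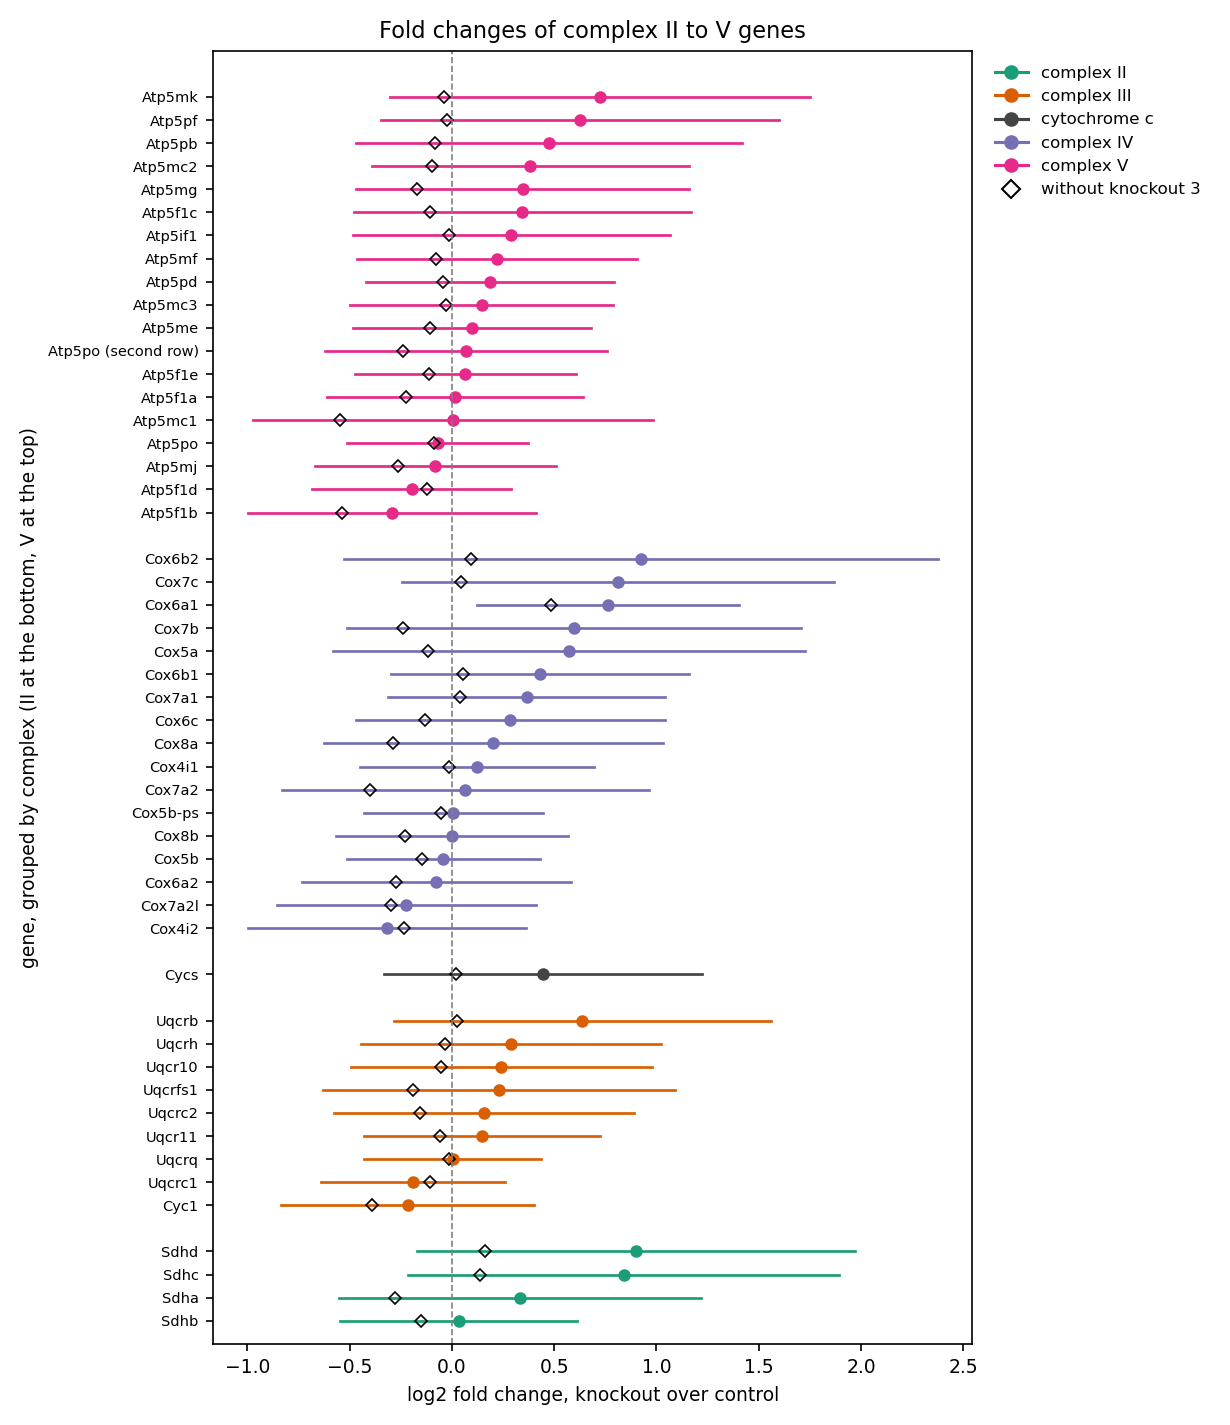
Log2 fold change of knockout over control (horizontal axis) for the 50 members, grouped by complex; circles are edgeR values with 95% intervals, and open diamonds the values without knockout 3. The interval of Cox6a1 alone excludes 0, and most diamonds lie to the left of their circles.

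Per kilobase of transcript, the highest control means were those of Atp5f1e (2257 CPM per kb), Atp5me (2179), Cox8b (2090), Atp5mc3 (1929), Cox6a2 (1651) and Cox7a1 (1614). The control ranges of each neighbouring pair in this order overlapped. Lengths were medians over the annotated protein-coding transcripts of each gene, whether or not heart uses them. The order thus depends on the annotation as well. The muscle isoforms Cox8b, Cox6a2 and Cox7a1 were thus among the 6 highest on a per-length scale. Their ubiquitous partners Cox7a2 (440 CPM per kb), Cox6a1 (58.9) and Cox8a (58.3) were lower. Of complex II, Sdhb (260 CPM per kb) was above Sdhc (59.3), Sdha (53.2) and Sdhd (38.4), the ranges of the last 3 overlapping.

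The excess in knockout 3 was uneven across members. Relative to the median of the other 5 hearts it ran from 0.709-fold in Cox4i2, 0.775-fold in Uqcrc1 and 0.787-fold in Atp5f1d to 3.32-fold in Sdhd and 3.97-fold in Cox6b2. Across the 50 genes, which share the libraries and are not replicates, the log2 difference of knockout 3 from the mean of the others went with transcript GC content at r = -0.55 (Spearman rho -0.51). The median difference was 1.11 in the 17 members under 50% GC and 0.50 in the 33 others. Over all 11518 genes with a GC value r was -0.13, and over 35 complex I genes -0.40. With log2 transcript length r was -0.305 over all 11518 genes and 0.03 across the members. The median length was 2758 bases over all these genes and 669.5 bases in the members. With a GC offset in the fit the member median was 0.176, with 37 of 50 above 0 and 0 members called. That fit used 11497 protein-coding genes. The same genes without the offset gave a member median of 0.165, with 35 of 50 above 0. The part of GC content in the result was not otherwise tested, and that of length was not tested.

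**Figure D5:**
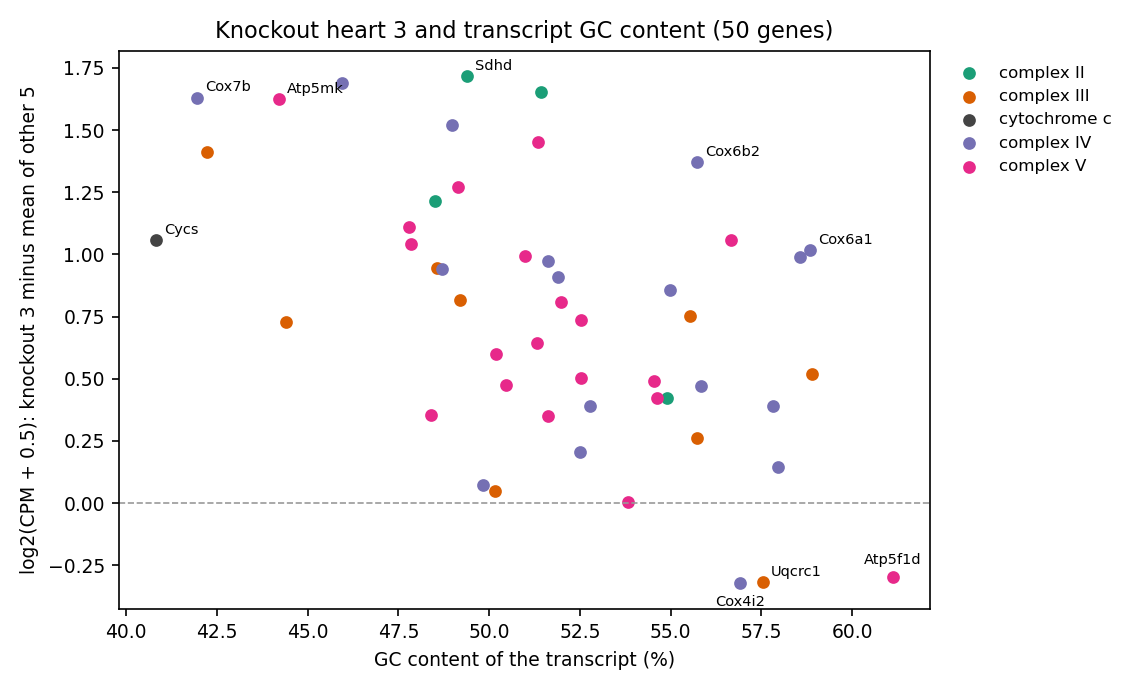
Log2(CPM + 0.5) in knockout 3 minus the mean of the other 5 hearts (vertical axis) against transcript GC content in percent (horizontal axis) for 50 members, coloured by complex. Values tend to fall from over 1 in GC-poor members such as Cycs and Cox7b to below 0 in Uqcrc1 and Atp5f1d (r = -0.55). Exceptions include Cox6a1 (58.8% GC, 1.02), Cox6b2 (55.7% GC, 1.37) and Uqcrc2 (44.4% GC, 0.73).

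The partners of the members did not pass the test either. The 6 subunits of complexes III to V encoded by mitochondrial DNA took 14.6, 17.5 and 15.5% of counts in controls and 14.8, 17.5 and 15.6% in knockouts, so knockout 3 was not high in them as it was in the nuclear members. All 6 lay below 0, with a median of -0.24 and 0 called (5 of 6 with column totals only, where the median was -0.08). Control 2 was the highest heart in all 6, and without it 4 lay below 0 and the median was -0.02. Without knockout 3 it was -0.14. mt-Atp8 was at 70.0, 108 and 67.5 CPM against 51.9, 70.9 and 47.5 CPM (log2 fold change -0.53), and mt-Co1 had a log2 fold change of -0.40. Of 36 complex I genes, 29 lay above 0, the median was 0.11 and 0 were called; Ndufb4 (0.57) and Ndufs3 (0.39) had the smallest p. Without knockout 3 the median was -0.02, Ndufb4 was at 0.08 and Ndufs3 at 0.13. Ndufa4, now placed in complex IV, was at 1159, 1040 and 1586 CPM against 632, 1345 and 2393 CPM, the knockouts again enclosing the controls.

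Of 44 assembly factors tested, 38 lay above 0, with a median of 0.27 and 0 called, and the median was 0.11 without knockout 3. Sdhaf4, which helps assemble complex II, was at 14.1, 13.6 and 23.2 CPM in controls and 21.6, 32.8 and 65.0 CPM in knockouts. Knockout 1 overlapped control 3, and the log2 fold change was 1.23 ± 0.40 (SE; edgeR unadjusted p = 0.0142, adjusted p = 0.694), or 0.67 without knockout 3. Cox18, an insertase for a complex IV subunit, was at 1.05, 1.29 and 1.12 CPM against 1.56, 2.12 and 1.83 CPM, from 13 to 33 counts. Its groups did not overlap (log2 fold change 0.67). Of the 44 factors, 1 lay wholly above the controls and 0 wholly below, against 6.26% and 5.82% of all genes. Of 18 transcriptional regulators, 11 lay above 0, with a median of 0.04 (-0.01 without knockout 3) and 0 called. Tfam, which packages and transcribes mitochondrial DNA, was at 6.53, 5.90 and 6.68 CPM against 8.54, 8.02 and 14.9 CPM (log2 fold change 0.72, or 0.38 without knockout 3; edgeR unadjusted p = 0.0252, adjusted p = 0.694). Tfb1m, a mitochondrial rRNA methyltransferase, had 11, 12 and 11 counts against 18, 24 and 29 counts (log2 fold change 0.78, edgeR unadjusted p = 0.0495, adjusted p = 0.694). In both genes every knockout heart lay above every control in CPM. That held for 3 of the 18 regulators, against 6.26% of all genes, and 1 lay wholly below, against 5.82%.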

How the data were processed

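Poly(dT)-primed, tagmented cDNA libraries of 6 hearts were analysed. Per the submitters' processing notes, STAR 2.7.11, SAMtools 1.22.1, featureCounts of Subread 2.1.1, edgeR 4.0.16 and the mouse build mm39 were used; neither the annotation release nor the strand setting is given in the sources used here. Estimated counts per gene were deposited by the authors (21.3 to 22.7% of detected genes held a fraction of a read), and so were CPM, which equalled count over column total times 1000000. Here counts were rounded and tested in R 4.3.3 with edgeR 4.0.16 (TMM, quasi-likelihood test, genes with at least 1 CPM in 3 libraries), with Benjamini-Hochberg adjustment over 13717 genes. Each standard error is the fold change over the root of the F statistic. The script was tested on simulated counts with a coefficient of variation near the common value of these hearts (0.253). There it called most 4-fold changes but a minority of 2-fold changes. The simulation had the same spread for all genes and no outlying heart. It therefore does not show how many such changes would be called in these hearts. Levels below are TMM-normalised CPM. Isoform ratios, log2 of (CPM + 0.5), were tested by exact permutation (SciPy 1.17.1), adjusted over the 4 ratios. Lengths, GC content and overlaps came from GENCODE M21, promoters from RefSeq GRCm38.p6; neither is the authors' build, so promoter coordinates are those of the RefSeq build alone.

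Alternatives were DESeq2 1.42.0 and its size factors, column totals, limma-trend 3.58.1, other filters, unrounded counts, covariates, a replicate block, a GC offset, and each heart left out. The members and lists were chosen with earlier results of these data known. Chosen after values were seen were the GC and length description and the GC split at 50%. So were the counts of highest and lowest library, the Xist limit, and the 5 motifs and 5 printed promoters. The motifs and promoters were picked with the promoter letters in view. Genes were named by a fixed rule: Ybx1, the isoform families, all Sdh and Uqcr genes, Cyc1, Cycs, the catalytic and inhibitor genes of complex V, the most abundant member and the largest and smallest fold change in complexes IV and V, members with an unadjusted p below 0.05 or below the filter, and the 2 smallest p-values of each other list. Cox5a, Cox6c, Cox7b, Atp5f1d, Atp5f1e, Atp5me, Atp5pf, Atp5mg, Atp5pd, Myh6, Ryr2, C1qa and the other members listed with the alternatives fall outside that rule and were named after their values were seen.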

Additional observations from a re-analysis of the deposited data

How the results depend on the processing

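Under each of the 20 alternative settings run, 0 members passed an adjusted p of 0.05, as in the fit reported. Over all genes the count of calls was 0 in that fit, 15 with DESeq2, 1 with limma-trend on log2(CPM + 1), 133 with no filter on low values, 4 with the TEC share as a covariate, and 0 to 3 when 1 heart at a time was left out, the 3 arising without knockout 3. With the replicate number as a block it was 5 over all genes and 0 among the members, and the member median was 0.13. Deviations of same-numbered hearts had correlations of -0.113, 0.445 and 0.583. Those of differently numbered hearts ran from -0.697 (control 2 with knockout 3) to 0.572 (control 2 with knockout 1). Like numbers thus did not always go with higher correlations, and the numbers were not taken to pair the hearts. The member median ranged from -0.11 without knockout 3 to 0.44 without knockout 1, and was -0.23 with the TEC share as a covariate; its shift of over 0.1 with column totals only (0.36) went with one of the median of all genes (0.17). The difference in the log2 ratio of Cox8b to Cox8a ranged from -0.304 to 0.063 over the fits without 1 heart. With a minimum of 5 CPM, the log2 fold change became -0.039 for Atp5mc1, -0.006 for Sdhb, -0.026 for Atp5f1a, -0.041 for Cox8b, -0.034 for Uqcrq and -0.031 for Cox5b-ps. With DESeq2, the log2 fold change became -0.003 for Atp5mc1, -0.009 for Cox8b, -0.008 for Uqcrq and -0.004 for Cox5b-ps. With DESeq2 size factors in edgeR, the log2 fold change became -0.003 for Atp5mc1, -0.009 for Cox8b, -0.008 for Uqcrq and -0.004 for Cox5b-ps. With the GC offset, the log2 fold change became -0.055 for Atp5mc1, -0.03 for Atp5f1a and -0.049 for Uqcrq. With the TEC share as a covariate, the log2 fold change became -0.469 for Cox5a, -0.003 for Sdhd, -0.297 for Atp5pb, -0.783 for Atp5mc1, -0.275 for Sdhb, -0.218 for Cox6c, -0.193 for Atp5f1e, -0.203 for Atp5mc3, -0.181 for Uqcr11, -0.068 for Uqcrb, -0.377 for Sdha, -0.143 for Atp5pf, -0.345 for Atp5f1a, -0.292 for Cox8b, -0.236 for Atp5f1c, -0.308 for Uqcrc2, -0.367 for Cox7b, -0.154 for Cox4i1, -0.66 for Cox7a2, -0.087 for Atp5pd, -0.446 for Cox8a, -0.031 for Cox6b1, -0.448 for Uqcrfs1, -0.236 for Atp5mf, -0.301 for Atp5mg, -0.048 for Uqcrq, -0.217 for Atp5me, -0.245 for Cox6b2, -0.264 for Atp5if1, -0.272 for Uqcr10, -0.198 for Atp5mc2, -0.136 for Cycs, -0.224 for Uqcrh, -0.126 for Atp5mk, -0.023 for Cox7a1, -0.115 for Cox5b-ps, -0.333 for the second Atp5po gene and -0.616 for Ndufa4. With Xist expression as a covariate, the log2 fold change became -0.133 for Atp5mc1, -0.017 for Atp5f1a, -0.025 for Cox8b and -0.037 for Cox7a2. With column totals only, the log2 fold change became 0.071 for Atp5mj, 0.078 for Atp5po, 0.07 for Cox6a2 and 0.11 for Cox5b. With limma-trend on log2(CPM + 0.5), the log2 fold change became 0.038 for Atp5mj, 0.087 for Atp5po, 0.026 for Cox6a2 and 0.113 for Cox5b. With limma-trend on log2(CPM + 1), the log2 fold change became 0.038 for Atp5mj, 0.087 for Atp5po, 0.026 for Cox6a2 and 0.113 for Cox5b. Over the protein-coding genes with a GC value, the log2 fold change became -0.028 for Atp5mc1, -0.015 for Atp5f1a, -0.03 for Cox8b, -0.024 for Uqcrq and -0.021 for Cox5b-ps. With the replicate number as a block, the log2 fold change became -0.112 for Atp5mc1, -0.015 for Atp5f1a, -0.023 for Cox8b and -0.07 for Cox7a2. Without mitochondrially encoded genes, the log2 fold change became -0.006 for Atp5mc1, -0.011 for Cox8b, -0.009 for Uqcrq and -0.005 for Cox5b-ps. Leaving out 1 heart at a time, the log2 fold change changed sign and ranged for Cox5a from -0.115 to 0.98, Atp5pb from -0.085 to 0.81, Atp5mc1 from -0.549 to 0.342, Sdhb from -0.15 to 0.216, Cox6c from -0.133 to 0.508, Atp5f1e from -0.114 to 0.233, Atp5mc3 from -0.028 to 0.373 and Uqcr11 from -0.056 to 0.349. Likewise it ranged for Atp5mj from -0.264 to 0.137, Sdha from -0.28 to 0.625, Cyc1 from -0.391 to 0.008, Atp5pf from -0.025 to 0.932, Cox7a2l from -0.449 to 0.025, Atp5f1a from -0.223 to 0.213, Cox8b from -0.227 to 0.16 and Atp5f1c from -0.109 to 0.599. Likewise it ranged for Cox6a2 from -0.273 to 0.175, Uqcrc2 from -0.156 to 0.384, Cox7b from -0.238 to 0.948, Cox4i1 from -0.016 to 0.309, Cox7a2 from -0.399 to 0.406, Atp5pd from -0.044 to 0.301, Cox8a from -0.288 to 0.493 and Uqcrfs1 from -0.189 to 0.563. Likewise it ranged for Atp5mf from -0.079 to 0.465, Atp5mg from -0.171 to 0.635, Uqcrq from -0.07 to 0.032, Atp5me from -0.107 to 0.293, Atp5if1 from -0.015 to 0.595, Uqcr10 from -0.053 to 0.526, Cox5b from -0.145 to 0.053 and Atp5mc2 from -0.095 to 0.642. Likewise it ranged for Uqcrh from -0.035 to 0.565, Atp5mk from -0.039 to 1.045, Cox5b-ps from -0.106 to 0.08, the second Atp5po gene from -0.24 to 0.25, Ndufa4 from -0.352 to 0.567 and Ndufa4l2 from -0.004 to 0.337. Apart from the changes each setting makes by construction, the cause was not tested. The adjustment for Xist used a limit of 10 CPM set after the values were seen, and a limit of 1 CPM tried first also gave 0 calls; the GC offset and the restriction to genes with a GC value were added after seeing the data as well. With 3 hearts a group, a depth of 12270796 to 15141525 counts and a common biological coefficient of variation of 0.253, the spread between hearts, not counting error, set the width of the intervals of well-expressed members; Cox4i2, Cox6b2, Cox7b2 and Cox8c, at 0 to 52 counts a heart, were also limited by counts.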
